A study of Mus musculus with 6 samples.

Results

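The phase II conjugation enzymes considered here were the protein-coding genes whose symbols begin with Ugt1, Ugt2, Ugt3, Sult, Gsta, Gstm, Gstp, Gstt, Gsto or Mgst. In GENCODE M21 on GRCm38 the rule found 65 such genes among 21938 protein-coding genes, in 10 families. Chromatin accessibility was read from 6 peak lists of ATAC-seq (sequencing of DNA cut by Tn5 transposase, which enters open chromatin) on mouse intestinal crypts, with 3 lists labelled Arid3a WT and 3 labelled Arid3a conditional knockout (cKO). ARID3A is a DNA-binding factor with an AT-rich interaction domain. Both groups received tamoxifen on 3 consecutive days and were taken 1 month after the first injection. In the cKO animals, per the methods of the study, a tamoxifen-activated Cre driven by the Villin promoter (VillinCre-ERT2) removed floxed Arid3a (Arid3a fl/fl) from epithelial cells, so other cells of the preparation kept the gene. The age of the animals is not given in the sources used here. A peak belonged to a member when its summit lay in the gene body or within 5 kb of it. Where it belonged to more than 1 member, it was given once, to the one of these with the nearest start site. Peaks of different lists that shared at least 1 base were joined into a site, which gave 132 member sites among 71286 in the genome.

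Phase II enzymes attach a polar group to drugs, dietary compounds, bile acids, steroids and bilirubin, which makes them easier to excrete. UDP-glucuronosyltransferases (Ugt genes) transfer glucuronic acid, cytosolic sulfotransferases (Sult genes) transfer sulfate, and glutathione S-transferases (Gst and Mgst genes) join glutathione to reactive electrophiles. The gut epithelium is, with the liver, a main site of these reactions. Many of these genes stand in clusters of close paralogs, and the Ugt1a genes share their last exons while each has a first exon and a promoter of its own.

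The lists held between 40492 and 58297 peaks, and read depth per list is not known from them. Each peak was therefore described by its percentile, the rank of its fold enrichment over background within its own list, where 100 is the strongest. In bulk crypts, fewer cells with an open site and weaker opening per cell cannot be told apart. The Arid3a promoter was called in 6 of 6 lists, at percentiles of 64.7, 61.1 and 54.4 in WT and 46.5, 56.7 and 43.7 in cKO, which does not check the deletion, since a promoter peak can remain when exons are removed. Of 6 intestinal epithelium markers, 3 had a promoter peak in every list (Cdh1, Vil1 and Cdx2). Of 4 leukocyte markers, 0 had a promoter peak in any list, and of 4 markers of mesenchyme and endothelium, 2 had one in every list (Col1a1 and Pdgfra). Of 4 crypt markers, 2 had one in every list (Olfm4 and Mki67). Of 3 liver markers, 0 had one in every list. Alb had none in any list, while Apob had one in 5 lists, at percentiles of 65.9 to 75.4, and Cyp2e1 in 4. The Cdx2 promoter stood at 71.6, 74.2 and 73.4 in WT and at 57.4, 69.1 and 58.3 in cKO, with no overlap. The means of Cdh1, Vil1 and Cdx2 differed by -9.28, -8.06 and -11.4 percentile points, cKO minus WT, and the part of such epithelial markers in the member results was not tested.

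Promoter calls differed between the families. A promoter peak, with its summit from 1000 bp before to 100 bp after an annotated start site, was called in all 6 lists at 25 of the 65 genes, in some lists at 8 and in none at 32. Of all protein-coding genes, 44.6% had a promoter peak in all 6 lists. The Gsto family (2 of 2 genes), the Mgst family (3 of 3), Gstm (6 of 7), Gsta (3 of 4) and Gstt (3 of 4) were called throughout at most genes. Ugt1 (3 of 9), Ugt2 (3 of 10) and Sult (2 of 21) were not, and Ugt3 (0 of 2) and Gstp (0 of 3) had no gene with such a peak. The median percentile of the 25 promoters was 71.0, against 85.8 over all coding genes with a promoter peak in all 6 lists. Counting only the 5′ end of each gene in place of every annotated transcript start lowered the 25 genes to 15. The share of all coding genes and the counts per family were not recounted in that way. The number of annotated starts differed between members, from 1 to 9 per gene, and its part in the family counts was not tested.

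**Figure D1:**
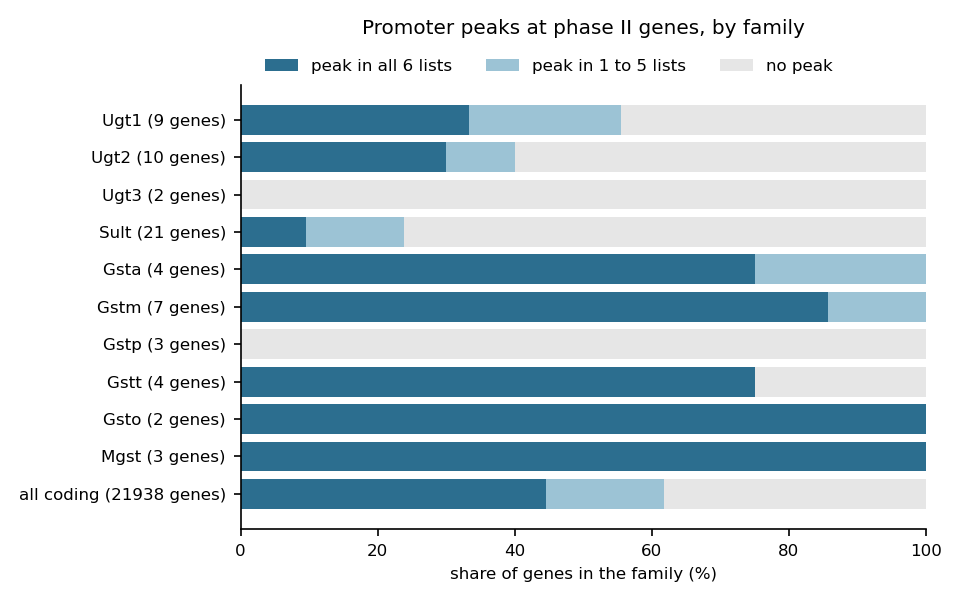
Share of genes in each family, in percent, with a promoter peak in all 6 lists, in 1 to 5 lists or in none, with all 21938 protein-coding genes in the lowest bar. Gsto and Mgst are filled throughout, and Ugt3 and Gstp are empty.

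At the glutathione transferases of the mu class (Gstm), 9 of 12 sites were called in all 6 lists (75.0%, against 45.9% of all sites). The median promoter percentile was 83.6. All 7 genes lie within 149 kb of chromosome 3, and the lists held 15 to 19 peaks between the outermost gene ends. Gstm4 had the highest promoter of all members, with percentiles of 94.8, 98.1 and 98.8 in WT and 98.0, 97.2 and 98.7 in cKO. The groups overlapped at Gstm4 and the lowest of the 6 values was 94.8. Gstm7 followed at a mean of 88.0 and Gstm1 at 84.8, and Gstm5, the member with the most sites of the family, had 3 sites and a promoter mean of 71.6. Gstm3 had a promoter peak in 3 lists, but a site with its summit 107 bp past the start, just outside the promoter limit, was called in all 6.

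The omega class (Gsto1 and Gsto2) reduces dehydroascorbate and arsenic compounds, and its promoters had a median percentile of 92.2, above that of Gstm. Only 2 of its 7 sites (28.6%, against 45.9% of all sites) were called in all 6 lists. The Gsto2 promoter stood at 95.1, 98.3 and 99.5 in WT and 97.5, 99.2 and 92.7 in cKO. The Gsto1 promoter had a mean of 87.4. Gsto2 also had 4 intronic sites, of which 0 were called in all 6 lists. The strongest of them, Gsto2 +12381, was missing in WT 2 and stood at 41.2 and 59.5 in the other WT lists and at 64.8, 66.4 and 72.4 in cKO. The promoter windows of Gstm4, Gstm7 and Gsto2 are printed because they were among the most accessible of all members. They run within 100 bp of the summit, on the strand of the gene, with annotated untranslated bases removed, from chr3:108044895-108044940 (minus strand), chr3:107931818-107931924 (minus strand) and chr19:47865634-47865766 (plus strand) of GRCm38. None of the searched motifs given further on lay in the printed bases, so no letter is in capitals. The full window of Gstm7 held 1 antioxidant response element core, in bases not printed.
Gstm4 +19: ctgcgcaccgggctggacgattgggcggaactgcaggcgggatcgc
Gstm7 -7: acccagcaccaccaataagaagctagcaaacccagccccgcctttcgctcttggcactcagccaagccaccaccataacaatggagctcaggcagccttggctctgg
Gsto2 -42: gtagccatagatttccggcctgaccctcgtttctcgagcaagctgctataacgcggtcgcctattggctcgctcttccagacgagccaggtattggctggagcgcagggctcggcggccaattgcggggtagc

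The microsomal enzymes (Mgst), membrane proteins of the endoplasmic reticulum that include Mgst2, a leukotriene C4 synthase, were open at all 3 promoters. Mgst3 had 7 sites, 6 of them called in all 6 lists, and its promoter stood at 89.4, 78.0 and 73.1 in WT and 65.9, 83.2 and 76.7 in cKO. The Mgst3 site at +15551 (distances are in bp from the nearest annotated start of the gene, minus for upstream) was the weakest member site called everywhere, with a mean percentile of 3.40. Of the theta class (Gstt), which acts on small halogenated compounds, Gstt3 had a promoter mean of 86.4, Gstt2 had the most sites (6) and Gstt4 had none. In the alpha class (Gsta), the Gsta1 promoter had a mean of 72.1 and Gsta2 had 5 sites. Gsta3 had a promoter peak only in WT 3 (34.7) and cKO 1 (68.8). The promoter window of Gsta1 has a 98.4% identical copy near Gm3776 on the same chromosome, so reads there may be shared with that gene.

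The pi class (Gstp1, Gstp2 and Gstp3) had no peak in any list, and this cannot be read as closed chromatin. The promoter windows of all 3 genes are matched without a mismatch by a patch sequence of the assembly, MG153_PATCH, 246751 bp long. That patch aligned to chr19:4013990-4260720, and within this span 0 peaks were called in each of the 6 lists, while flanks of the same length on both sides held 41 to 47 peaks together per list. Each list also held 1 peak on the patch sequence itself, so the patch was part of the reference used for alignment. Whether reads that matched both copies were dropped was not tested. Each member locus was also aligned by itself to 74 patch sequences. Only Gstp2 and Gstp3 were then covered over at least 50% of their length at 97% identity. Gstp1 was not, although it too lies in the span to which the patch aligned. Without the Gstp genes the rule leaves 62 members.

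**Figure D2:**
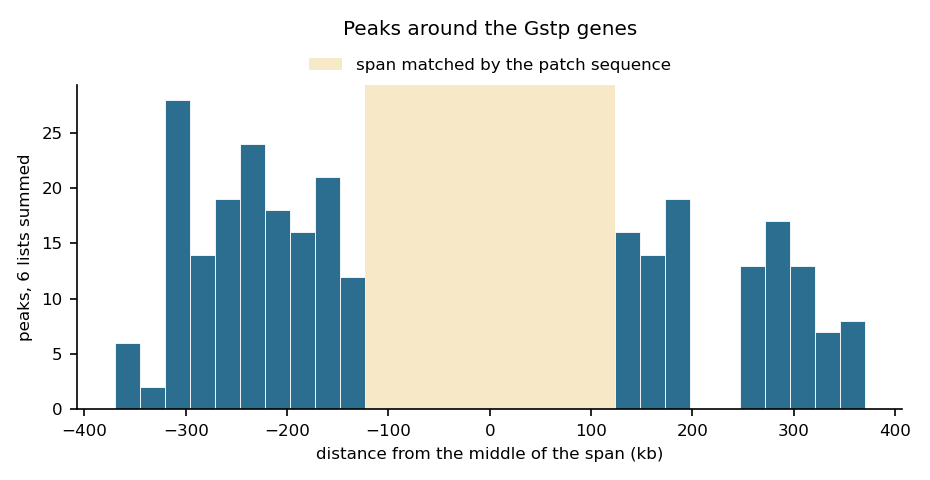
Peaks per bin, summed over the 6 lists, against the distance in kb from the middle of the span that the patch sequence matches (shaded). All 10 bins of the span hold 0 peaks, and peaks resume at both of its edges.

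Among the glucuronosyltransferases, sites called in all 6 lists had a median percentile of 50.1 at Ugt1 and 55.5 at Ugt2. The median was 50.1 over all such member sites and 65.0 over all such sites of the genome. In the Ugt1a cluster, 25 sites were assigned to 8 of 9 genes and 11 of them (44.0%, against 45.9% of all sites) were called in all 6 lists. Ugt1a9 had the highest promoter, at 55.1, 46.9 and 63.1 in WT and 76.6, 59.8 and 70.3 in cKO. The groups overlapped by the lowest cKO and the highest WT value. Ugt1a6a, which glucuronidates small phenols, had the most sites (7) and a promoter mean of only 17.6. Ugt1a1, the bilirubin-conjugating enzyme, had a promoter peak in 5 lists, and its site at -60 was called in all 6. Ugt1a2 had a promoter peak in WT 3 alone (7.6) and Ugt1a10 had no peak assigned. The strongest site of the cluster lay inside the shared Ugt1a body, assigned to Ugt1a5 at +20529, at percentiles of 68.6 to 93.8. The nearest coding start to this site was that of Ugt1a2, whose body and flanks did not hold it.

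Among Ugt2 genes, which act on steroids, bile acids and odorants, Ugt2b36 had the highest promoter, at 37.0, 66.5 and 76.8 in WT and 78.4, 72.8 and 78.8 in cKO. Its low value was that of WT 1, the shortest list. Ugt2b34 had the most sites (6) and a promoter mean of 62.9. Ugt2a3 had a promoter peak in 3 lists and a site 122 bp past its start in all 6. Ugt2b37, Ugt2b38 and Ugt2a1 had no site, although Ugt2a1 shares its body with Ugt2a2, to which 2 sites were assigned. Of the Ugt3 genes, Ugt3a1 had a single site, in cKO 2 alone, and Ugt3a2 had none.

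The sulfotransferases ranged from the member with the most sites to genes without any. Sult2b1, which sulfates cholesterol, had 12 sites, more than any other member, and 10 of them were called in every list. Sult1b1, which sulfates thyroid hormones and phenols, had a promoter at 90.8, 97.8 and 95.2 in WT and 91.4, 84.2 and 84.6 in cKO. Sult1d1 had a promoter peak in 5 lists, missing in cKO 1, and Sult1a1 in WT 2 (23.0) and cKO 1 (4.0) alone. By contrast, the 8 Sult2a genes, hydroxysteroid and bile acid sulfotransferases, had no site, and over the 870 kb from the first to the last of them each list held 0 or 1 peak. Sult1c1, Sult1e1, Sult3a1 and Sult3a2 also had none. The Sult1b1 promoter window (upstream bases of chr5:87536223-87536328, minus strand) is shown as the most accessible Sult promoter.
Sult1b1 -6: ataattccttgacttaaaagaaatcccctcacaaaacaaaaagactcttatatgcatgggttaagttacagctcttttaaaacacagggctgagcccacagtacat

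**Figure D3:**
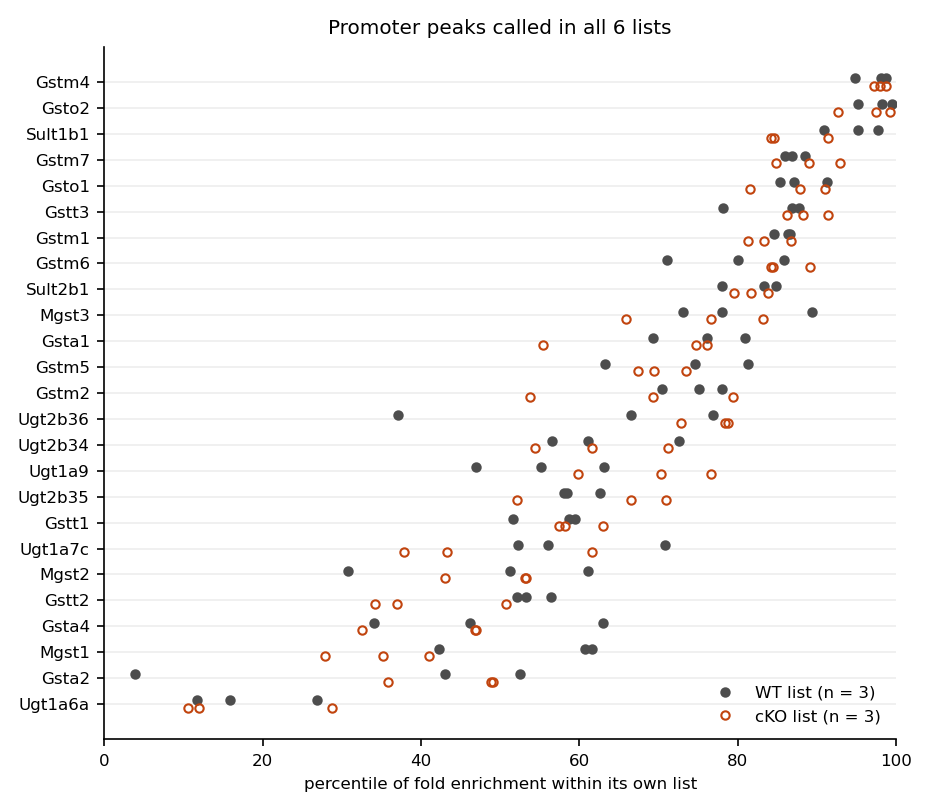
Percentile of the promoter peak within each list for the 25 genes called in all 6 lists, ordered by mean, with WT lists as filled and cKO lists as open circles (n = 3 each). Gstm4 and Gsto2 lie above 90 in every list, and Ugt1a6a lies lowest.

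The comparison of genotypes asked whether loss of Arid3a changed accessibility at these genes. The number of member peaks per list was 88, 103 and 105 in WT and 108, 97 and 100 in cKO (98.7 ± 9.29 against 101.7 ± 5.69, SD, n = 3). The groups overlapped, and the difference of 3.00 peaks was smaller than either SD. Of 132 sites, 77 were called in all 6 lists (58.3%, against 45.9% of all sites), 26 in a single list and 29 in 2 to 5 lists. A single cKO list held 16 of these sites (12.1%, against 11.5% of all sites) and a single WT list 10 (7.58%, against 9.4% of all sites). No member site was called in all cKO and no WT lists, which held for 0.464% of all sites, and none in all WT and no cKO lists, which held for 0.111%.

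With the weaker requirement of at least 2 lists of a genotype and none of the other, 4 sites remained. The cKO lists gave 2 of them (1.52%, against 3.34% of all sites) and the WT lists gave 2 (1.52%, against 1.25% of all sites). Gsta2 +1643 was called in cKO 1 (20.1) and cKO 2 (19.9), and Ugt1a2 -4754 in cKO 1 (12.6) and cKO 3 (19.3). Gsta1 +3692 was called in WT 2 (28.6) and WT 3 (19.5), and Ugt1a2 +5035 in WT 2 (13.8) and WT 3 (10.1). All 4 lay in the lower part of their lists, and the nearest coding start to Ugt1a2 +5035 was that of Dnajb3, which is no member. Their sequences are shown because they were the member sites closest to presence in a single genotype, from chr9:78354045-78354245 (minus strand), chr1:88195747-88195947, chr9:78238595-78238795 and chr1:88205536-88205678 (plus strand). Capitals mark the core of the antioxidant response element.
Gsta2 +1643: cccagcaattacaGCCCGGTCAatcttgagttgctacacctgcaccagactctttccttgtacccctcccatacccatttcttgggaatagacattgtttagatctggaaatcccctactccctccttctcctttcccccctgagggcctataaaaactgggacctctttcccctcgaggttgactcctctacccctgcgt
Ugt1a2 -4754: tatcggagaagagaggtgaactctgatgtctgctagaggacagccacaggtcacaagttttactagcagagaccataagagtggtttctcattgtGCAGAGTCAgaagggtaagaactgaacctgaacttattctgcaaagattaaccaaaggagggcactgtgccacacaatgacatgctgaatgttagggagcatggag
Gsta1 +3692: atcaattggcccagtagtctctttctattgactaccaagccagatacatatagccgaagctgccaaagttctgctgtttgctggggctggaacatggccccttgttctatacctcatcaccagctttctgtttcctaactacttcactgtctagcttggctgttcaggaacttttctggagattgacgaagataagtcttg
Ugt1a2 +5035: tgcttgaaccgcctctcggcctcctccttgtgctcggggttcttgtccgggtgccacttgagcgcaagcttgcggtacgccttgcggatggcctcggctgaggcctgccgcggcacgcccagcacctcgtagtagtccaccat

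Ranks were compared at the 77 sites called in every list, by limma on the percentiles of all 32748 such sites in the genome. At an adjusted p of 0.05, 0 sites in the genome were called (0%), so 0 member sites were. The unadjusted p from limma was under 0.05 at 1876 of the 32748 sites and at 6 of the 77 member sites. The lowest adjusted p from limma was 0.771. The difference, cKO minus WT, was above 0 at 33 member sites and below 0 at 44, with a median of -2.09 percentile points, against -0.09 over all sites.

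**Figure D4:**
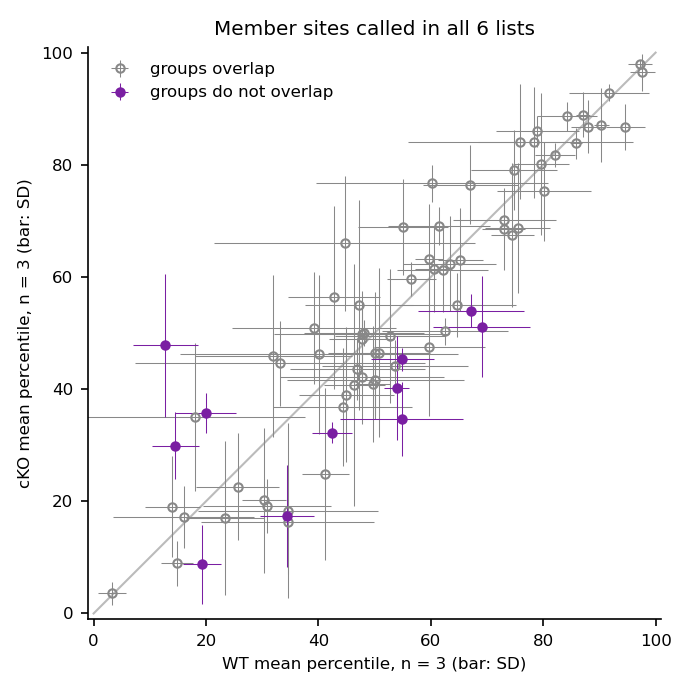
Mean percentile in cKO against mean percentile in WT (n = 3 lists each, bars are SD) for the 77 member sites called in all 6 lists, with the line of equality. Filled points are the 11 sites whose groups did not overlap, and Sult4a1 +197 is the one farthest above the line.

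At 3 member sites every cKO percentile lay above every WT percentile (3.90%, against 4.66% of all sites), and at 8 every cKO percentile lay below (10.4%, against 7.04%). Ranking by -log10 q in place of fold turned this split to 7 higher and 2 lower, with 6.72% and 2.24% of all sites. Without WT replicate 3 it became 13 higher and 9 lower, with 13.2% and 10.9% of all sites, and without cKO replicate 2 it was 10 higher and 15 lower, with 17.3% and 20.9%. None of the 11 sites passed the adjusted threshold.

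The largest difference upward was at Sult4a1, a sulfotransferase-like gene of the nervous system. Its site at +197 stood at 7.1, 12.5 and 18.7 in WT and at 62.4, 41.7 and 39.2 in cKO. In WT 2 and cKO 3 the summit of this peak fell within the promoter limits, and in the other lists it did not. The lowest cKO value was 20.5 points above the highest WT value, and fold enrichment was 3.21, 3.69 and 3.97 against 7.49, 5.27 and 5.23. The difference was 35.0 points (SE 8.02, adjusted p = 0.771 by limma). Mgst2 -154, near the start of an internal transcript, stood at 13.9, 24.1 and 22.0 in WT and 31.6, 37.9 and 37.6 in cKO (difference 15.7 points, SE 6.26). Sult1b1 +2646, in an intron, stood at 19.3, 12.2 and 12.2 in WT and 33.2, 33.7 and 23.0 in cKO (difference 15.4 points, SE 5.75). All 3 were weak peaks in the WT lists. At Sult1b1 the promoter differed by -7.91 points with overlapping groups.

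The summit windows of these 3 sites are shown as the only ones higher in cKO without overlap, from chr15:84105312-84105512 (minus strand), chr3:51671209-51671409 (plus strand) and chr5:87532400-87532600 (minus strand). The capitals in the Mgst2 window mark, in order, an AP-1 and an HNF4 motif.
Sult4a1 +197: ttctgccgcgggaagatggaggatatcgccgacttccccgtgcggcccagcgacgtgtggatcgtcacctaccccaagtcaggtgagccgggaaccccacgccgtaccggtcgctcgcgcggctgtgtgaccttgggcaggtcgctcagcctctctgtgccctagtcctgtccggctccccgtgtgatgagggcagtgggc
Mgst2 -154: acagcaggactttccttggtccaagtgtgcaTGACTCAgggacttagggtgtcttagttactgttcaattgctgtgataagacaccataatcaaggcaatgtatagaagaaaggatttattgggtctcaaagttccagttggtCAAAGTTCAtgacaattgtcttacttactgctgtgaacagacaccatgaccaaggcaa
Sult1b1 +2646: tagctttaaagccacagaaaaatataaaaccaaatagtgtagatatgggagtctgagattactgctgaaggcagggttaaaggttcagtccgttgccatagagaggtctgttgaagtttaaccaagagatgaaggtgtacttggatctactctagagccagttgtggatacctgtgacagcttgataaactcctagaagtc

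Among the non-overlapping sites that ranked lower in cKO, the largest difference was at the promoter of Mgst1, an abundant microsomal transferase. Mgst1 +28 stood at 60.7, 42.2 and 61.6 in WT and 35.2, 41.0 and 27.9 in cKO (difference -20.2 points, SE 8.83, adjusted p = 0.771 by limma). The groups were separated by 1.24 points. Mgst3 +6373, in an intron, stood at 74.1, 74.0 and 59.0 in WT and 56.3, 40.7 and 56.3 in cKO (difference -17.9 points, SE 8.51). Sult2b1 -1811 stood at 39.7, 33.4 and 30.2 in WT and 21.8, 23.6 and 7.0 in cKO (difference -17.0 points, SE 6.74). Gstt2 contributed 2 promoter sites. Gstt2 -24 stood at 52.1, 56.5 and 53.3 in WT and 33.1, 50.8 and 36.9 in cKO, and Gstt2 +28 at 41.1, 46.4 and 39.6 against 34.2, 30.5 and 31.9. Both lay lower in every cKO list, but Gstt2 +28 turned to a difference of 0.54 points when ranked by -log10 q. The remaining 3 were Sult6b2 -2097 (-13.1 points), Mgst3 +9490 (-10.4 points) and Ugt1a1 -60 (-9.58 points).

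Windows of the 4 largest differences among the non-overlapping sites lower in cKO are shown from chr6:138140244-138140315 (plus strand, upstream bases only), chr1:167387368-167387568 (minus strand), chr7:45744457-45744657 (minus strand) and chr10:75837368-75837548 (minus strand). Capitals mark an antioxidant response element core at Sult2b1 and a xenobiotic response element core at Gstt2.
Mgst1 +28: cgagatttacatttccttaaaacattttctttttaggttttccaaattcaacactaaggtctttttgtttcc
Mgst3 +6373: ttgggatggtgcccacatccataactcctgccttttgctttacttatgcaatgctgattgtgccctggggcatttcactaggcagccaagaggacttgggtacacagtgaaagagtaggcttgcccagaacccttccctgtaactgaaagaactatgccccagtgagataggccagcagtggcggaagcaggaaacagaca
Sult2b1 -1811: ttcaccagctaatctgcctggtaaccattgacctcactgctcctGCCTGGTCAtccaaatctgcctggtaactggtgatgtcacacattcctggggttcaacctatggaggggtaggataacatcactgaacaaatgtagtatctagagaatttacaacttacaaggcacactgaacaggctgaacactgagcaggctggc
Gstt2 -24: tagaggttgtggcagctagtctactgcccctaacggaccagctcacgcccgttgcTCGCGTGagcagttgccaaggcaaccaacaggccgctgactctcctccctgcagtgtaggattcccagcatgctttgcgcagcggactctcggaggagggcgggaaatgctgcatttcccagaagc

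**Figure D5:**
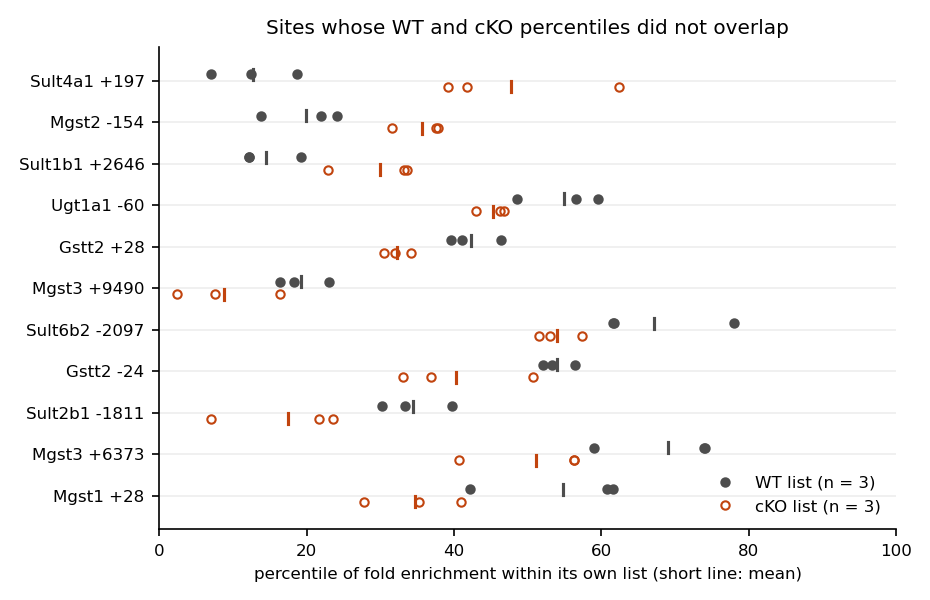
Percentile within each list at the 11 member sites whose WT (filled) and cKO (open) values did not overlap, ordered by the difference, with short lines at the means of 3 lists. Sult4a1 +197 has the widest gap, 20.5 points, and at Mgst3 +9490 the groups nearly touch.

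The letters of 5 motifs were searched within 100 bp of each summit, on both strands. The xenobiotic response element core (TNGCGTG), bound by the aryl hydrocarbon receptor, lay in 7.58% of member sites and 3.10% of all sites. The antioxidant response element core (TGACNNNGC), bound by NRF2, lay in 14.4% and 9.88%. AP-1 letters (TGACTCA or TGAGTCA) lay in 11.4% and 8.11%, HNF4 letters (CAAAGTCCA or CAAAGTTCA) in 3.03% and 2.53%, and ARID3 letters (ATCAAA or ATTAAA) in 16.7% and 16.2%. The antioxidant and AP-1 letters can overlap. At promoter sites alone the order turned for the antioxidant core (3 of 35 member sites, 8.57%, and 10.4% of all promoter sites) and for ARID3 (1 of 35, 2.86%, and 6.85%). The order held there for HNF4 (2 of 35, 5.71%, and 1.03%), AP-1 (5 of 35, 14.3%, and 3.41%) and the xenobiotic core (3 of 35, 8.57%, and 5.30%). Outside promoters it turned for HNF4 (2 of 97, 2.06%, and 3.00%). The 2 sides were also split by unlike rules. A member site counted as promoter by its middle summit over the lists, at a start of its own gene. Among all sites, a peak of any list at a start of any annotated gene was enough. These orders rest on few member sites. HNF4 letters occurred at 4 member sites: Mgst2 -154, Sult1b1 -6 (in bases not printed), Ugt2b34 -3968 and Ugt2b5 -2950. The mean A+T content of the windows was 51.7% at member sites and 47.3% at all sites.

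Genes that serve these enzymes were read against the 44.6% of all coding genes with a promoter peak in every list. Of 10 regulators, 9 had one, among them Ahr, the aryl hydrocarbon receptor, at 90.2 to 98.5 and Nfe2l2, which encodes NRF2, at 45.0 to 73.1. Nr1i2, the xenobiotic receptor PXR, and Ppara, a fatty acid receptor, ranked lower in every cKO list than in any WT list, a separation seen at 7.04% of all sites. Of 10 genes for cofactor supply, 6 were called in every list, and Papss1, which makes the sulfate donor, and Slc35b2, which carries it into the Golgi, did so too. Of 6 other detoxification enzymes 3 and of 5 efflux transporters 4 were called throughout, with 0 promoters in either list separated by genotype. None of these promoters passed the adjusted threshold in limma.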

How the data were processed

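ATAC-seq was analysed from 6 peak lists of mouse intestinal crypts (3 WT, 3 cKO), grouped by the genotype in the labels. The authors aligned reads with BWA to GRCm38 in the nf-core/atacseq pipeline and called narrow peaks per sample with MACS2, removing blacklisted regions. Per the deposited files, each peak carries a fold enrichment (a ratio to background), a −log10 p-value and a −log10 q-value, an integer score and a summit offset. No read counts per peak were used, so no count test could be run and depth is unknown. That nothing beyond separate labels is known of the animals means p-values measure the spread between these lists.

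The members and lists of genes were chosen with earlier results of these data known. Genes came from GENCODE M21 and sequence from GRCm38.p6. Percentiles were ranks of fold within a list, counted over chromosomes 1 to 19, X and Y. limma 3.58.1 (eBayes with trend, Benjamini-Hochberg) tested percentiles at sites called in all 6 lists, and was tested on simulated data. Copies of promoter windows (at least 95% identity over 1000 bp) were found with blastn 2.17.0, and patch sequences were aligned with minimap2 2.31. Named genes were, per family, those with the most sites and the highest promoter, every promoter called in 1 to 5 lists, the sites with the largest non-overlapping differences, sites in at least 2 lists of a genotype and none of the other, and members with no peak. Alternatives changed the ranked value, a −log10 q minimum of 5, list length, joining of summits within 250 bp, flanks of 2 or 10 kb, the promoter limits, the trend, a replicate block and each list left out.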

Additional observations from a re-analysis of the deposited data

How the results depend on the processing

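No member site was called by limma under any of 15 alternatives. Sites with non-overlapping ranks numbered 11 of 77, against 6 of 63 with a −log10 q minimum of 5 and 7 of 67 with lists of equal length. Of all sites, 4.39% were higher and 6.24% lower in cKO with the minimum, and 4.67% and 7.03% with equal lengths. Such member sites numbered 15 to 25 when a list was left out, where separation is easier with fewer values. Then 4 to 13 were higher and 9 to 15 lower in cKO, while 6.4% to 17.3% of all sites were higher and 9.02% to 20.9% lower. Without WT replicate 3 higher sites outnumbered lower ones. Sites called in a single genotype numbered 0, against 4 with at least 2 of 3 lists, 1 with the −log10 q minimum and 0 to 2 when a list was left out. With at least 2 of 3 lists, 3.34% of all sites were called in cKO alone and 1.25% in WT alone. For the minimum and for the left-out lists the share of all sites was not counted. The counts under those settings can therefore not be set against the genome. Genes with a promoter peak in all lists numbered 25, against 15 with the 5′ end of the gene only, for which the share of all coding genes was not counted. The difference in peaks per list was 3.00 and ran from -2.33 without WT replicate 1 to 6.17 without WT replicate 3. Of 126 values at the 11 named sites, 125 kept their direction, and Gstt2 +28 turned to 0.54 points when ranked by −log10 q. The 11 sites were picked for groups that did not overlap in these same lists. Leaving out a list or adding the replicate block could therefore hardly turn a direction, and the 125 values do not measure how stable these sites are. Same-numbered lists correlated at -0.298, -0.028 and 0.134 in their deviations from the group means, and differently numbered lists at -0.349 to 0.334. With 3 lists per group these values cannot tell whether same-numbered lists share more than a label. With the replicate block in limma, 0 sites were called and 1348 had an unadjusted p under 0.05. With 3 lists per genotype and no counts, even the difference of 35.0 points at Sult4a1 +197 did not pass the adjusted threshold.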

Other observations

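Some member sites lay nearer to the start of a gene outside the families. Of 132 sites, 21 had their nearest coding start at a gene other than the one assigned, and at 13 of these it was a non-member. Among the 13 were Mgst3 +19236 (Aldh9a1), Sult6b1 +12480 (Eif2ak2), Gstt3 +3346 (Ddt), Ugt1a2 +5035 (Dnajb3) and Sult2b1 +607 (Lmtk3). Sult6b1 had no promoter peak, and its only site, the one at +12480, stood at percentiles of 83.7 to 97.4.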
